A study of Mus musculus with 12 samples.

Results

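A set of 10 genes used to tell macrophages that reside in a tissue from those recruited to it was followed in the aortic arch of Apoe-/- mice. The genes were chosen by name, with earlier results of these data known. Lyve1, Folr2, Cd163 and Pf4 are taken as markers of resident macrophages of the adventitia, the outer layer of the artery, and Adgre1, Itgax, Itgam, Csf1r, Ly6c1 and Mpeg1 as markers of macrophages in general or of recruited myeloid cells. Each gene was measured by 1 probe with a value on all 12 arrays, so all 10 were among the 19705 genes tested. The arrays carried 4 of them under older names, with Lyve1 as Xlkd1, Adgre1 as Emr1, Pf4 as Cxcl4 and Ly6c1 as Ly6c.

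The study had 4 groups of 3 pools of aortic arch RNA, all from the C57BL/6 strain and all fed a diet of 21% fat and 0.15% cholesterol from 8 weeks of age. Apoe-/- mice, which lack apolipoprotein E, were studied after 8 weeks (pools 1, 2 and 3), 16 weeks (pools 4, 5 and 6) and 24 weeks (pools 10, 11 and 12) of the diet, and wild type mice after 16 weeks (pools 16, 17 and 18). Each pool held 3 mice except pool 2, which held 2, and the labels mark pools 3 and 6 with an unexplained asterisk. Every array set a pool against the same reference, a mixture of Apoe-/- aortic arch RNA from the 3 diet times labelled as 21 mice. The titles call this mixture a vehicle pool and the Apoe-/- pools untreated with drug, name no vehicle, and do not say whether the mixture holds the RNA of these same pools. A log2 ratio of 0 therefore means the level of that mixture, and not absence of change from wild type. Folds assume that the deposited ratios are in base 10, which no label states. In a smaller base they would be smaller, with the same calls. The wild type mice also ate the diet, there was no wild type group at 8 or 24 weeks, and age differed with the length of diet, so age and diet time cannot be told apart.

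Resident arterial macrophages are seeded before and around birth, maintain themselves largely by division, and carry Lyve1 and Folr2 in many tissues. In an atherosclerotic artery, blood monocytes enter the intima, mature into macrophages and foam cells, and take up Itgax, the CD11c chain, as many of them do in plaque. Whole-tissue RNA holds both kinds along with smooth muscle, endothelium and blood cells, so more cells of a type and more RNA per cell cannot be told apart.

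In the values as deposited, Mpeg1, Itgax, Adgre1 and Csf1r rose more above wild type than any resident marker after 16 and 24 weeks. The general or recruited class did not move as a whole. After 16 weeks the log2 differences of Itgam (0.10) and Ly6c1 (0.73) were smaller than that of the resident marker Pf4 (1.48). After 24 weeks that of Itgam was -0.57, which was not called. In Apoe-/- arches after 16 weeks of diet, 4 of the 6 general or recruited markers, Mpeg1, Itgax, Adgre1 and Csf1r, were higher than in wild type arches of the same diet time, against 0 of the 4 resident markers (limma, adjusted p under 0.05). At an unadjusted p under 0.05 the counts were 5 of 6 and 2 of 4, against 22.1% of all genes. Of all genes tested, 10.1% were called in this comparison, 6.03% as higher and 4.07% as lower. After 24 weeks, 5 of the 6 general or recruited markers and 1 of the 4 resident markers, Folr2, were higher than in wild type, where 22.9% of all genes were called and 11.6% as higher. After 8 weeks, 3 of the 6 general or recruited markers (Mpeg1, Itgax and Csf1r) and 0 of the 4 resident markers were higher by limma. Of all genes, 2.5% were called after 8 weeks, 1.76% as higher. At an unadjusted p under 0.05 the counts after 8 weeks were 4 and 1, against 21.4% of all genes, which is near the share of the resident markers.

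The medians of the classes show the same contrast. The median log2 difference from wild type over the 6 general or recruited markers was 0.85, 2.16 and 3.08 after 8, 16 and 24 weeks. Over the 4 resident markers it was -0.05, 0.46 and 0.72, and over all genes tested -0.01, -0.03 and -0.04. After quantile normalization, which gives every array the same distribution of ratios, the medians were 0.28, 0.75 and 2.04 for the general or recruited markers and -0.06, 0.45 and 0.35 for the resident ones, so the 16-week contrast was much smaller. In single pools, the median log2 ratio of the general or recruited markers lay between -1.86 and -1.39 after 8 weeks, between -0.53 and 0.01 after 16 weeks, between 0.30 and 0.59 after 24 weeks and between -2.99 and -2.29 in wild type. The 4 ranges do not overlap. The median of the resident markers lay between -0.90 and 0.14, 0 and 0.17, and -0.06 and 0.26 at the 3 diet times and between -0.72 and -0.29 in wild type, with the 8-week range enclosing that of wild type.

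**Figure D1:**
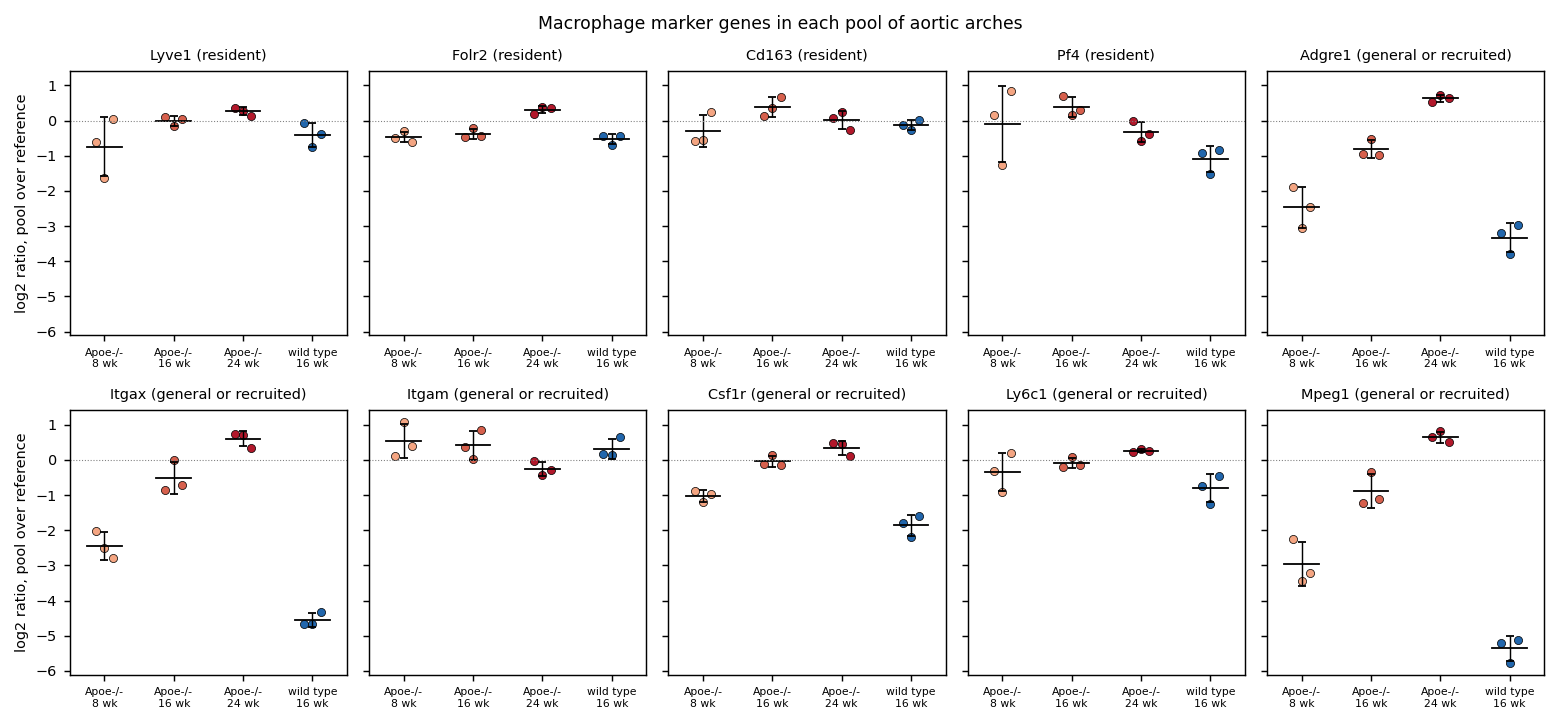
Log2 ratio of each pool over the common reference (vertical axes) for the 10 markers, with 1 panel per gene, the 3 Apoe-/- diet times in order and wild type last on the horizontal axes, 3 pools each as points, and the group mean as a bar with whiskers of 1 SD to either side. Mpeg1, Itgax, Adgre1 and Csf1r step upward with diet time and are lowest in wild type, while Lyve1, Cd163 and Pf4 spread widely after 8 weeks of diet.

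Among the general macrophage markers, Mpeg1 encodes perforin-2, a pore-forming protein of macrophages. Its log2 ratios were -2.24, -3.43 and -3.22 after 8 weeks, -1.23, -0.33 and -1.11 after 16 weeks and 0.64, 0.81 and 0.50 after 24 weeks in Apoe-/- pools, against -5.21, -5.76 and -5.11 in wild type pools. No 2 groups overlap, and all wild type pools lie below all Apoe-/- pools. By limma, Mpeg1 was 5.27-fold higher than in wild type after 8 weeks (95% CI 3.26 to 8.51, adjusted p = 0.00431). It was 22.2-fold higher after 16 weeks (CI 13.7 to 35.8, adjusted p = 1.23e-05) and 64.4-fold higher after 24 weeks (CI 39.9 to 104, adjusted p = 5.57e-07). The wild type ratios come near the low end of the deposited values, and without intensities it is not known whether the probe lay above background there.

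Itgax encodes CD11c, an integrin chain of dendritic cells and of many plaque macrophages. Apoe-/- pools had log2 ratios of -2.02, -2.51 and -2.80 after 8 weeks, -0.85, -0.00 and -0.71 after 16 weeks and 0.74, 0.72 and 0.35 after 24 weeks, against -4.67, -4.67 and -4.31 in wild type pools. The order of the groups is that of Mpeg1, again with no overlap. Itgax was 4.31-fold higher than in wild type after 8 weeks (CI 2.99 to 6.21, limma adjusted p = 0.00267). It was 16.3-fold higher after 16 weeks (CI 11.3 to 23.6, adjusted p = 7.1e-06) and 35.6-fold higher after 24 weeks (CI 24.7 to 51.3, adjusted p = 4.5e-07).

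Adgre1 encodes an adhesion receptor that is the classical surface marker of mouse macrophages, carried by resident and recruited cells alike. Apoe-/- pools gave log2 ratios of -1.89, -3.05 and -2.45 after 8 weeks, -0.95, -0.52 and -0.97 after 16 weeks and 0.54, 0.72 and 0.63 after 24 weeks, against -3.20, -3.79 and -2.98 in wild type pools. The 8-week pools overlap the wild type pools, through pool 2, and the later groups do not. The difference after 8 weeks was 1.82-fold (CI 1.2 to 2.75) and did not pass (limma adjusted p = 0.118). It passed in 2 of 20 alternative fits, and in 1 of the 12 that left out 1 pool, without pool 2 (adjusted p = 0.0301). Under quantile normalization the 8-week log2 difference was -0.222 (limma adjusted p = 0.632). After 16 weeks Adgre1 was 5.72-fold higher than in wild type (CI 3.78 to 8.65, adjusted p = 0.000156) and after 24 weeks 15.5-fold higher (CI 10.3 to 23.5, adjusted p = 2.07e-06).

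Csf1r encodes the receptor for the growth factor M-CSF, on which nearly all macrophages depend. It had log2 ratios of -0.89, -1.21 and -0.97 after 8 weeks, -0.12, 0.15 and -0.14 after 16 weeks and 0.47, 0.45 and 0.11 after 24 weeks, against -1.79, -2.18 and -1.59 in wild type pools. The wild type pools lie below every other pool, while the 16- and 24-week pools overlap. Csf1r was 1.78-fold higher than in wild type after 8 weeks (CI 1.4 to 2.26, limma adjusted p = 0.0223), 3.52-fold after 16 weeks (CI 2.76 to 4.48, adjusted p = 4.04e-05) and 4.59-fold after 24 weeks (CI 3.6 to 5.84, adjusted p = 2.84e-06). The 8-week call was lost without pool 3, 16 or 17, with adjusted p up to 0.0919.

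The size of these differences depended on the scaling of the arrays. Quantile normalization ended all 3 calls after 8 weeks, with log2 differences of 0.63 for Mpeg1, 0.42 for Itgax and 0.26 for Csf1r. It also ended that of Adgre1 after 16 weeks (log2 difference 0.27, limma adjusted p = 0.399). Mpeg1 and Itgax still passed after 16 weeks, with log2 differences of 1.68 and 1.67, and after 24 weeks, with 4.15 and 3.37. With only the pair of groups compared in the fit, Mpeg1 and Csf1r also missed the threshold after 8 weeks (adjusted p = 0.0569 for Mpeg1 and 0.123 for Csf1r).

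**Figure D2:**
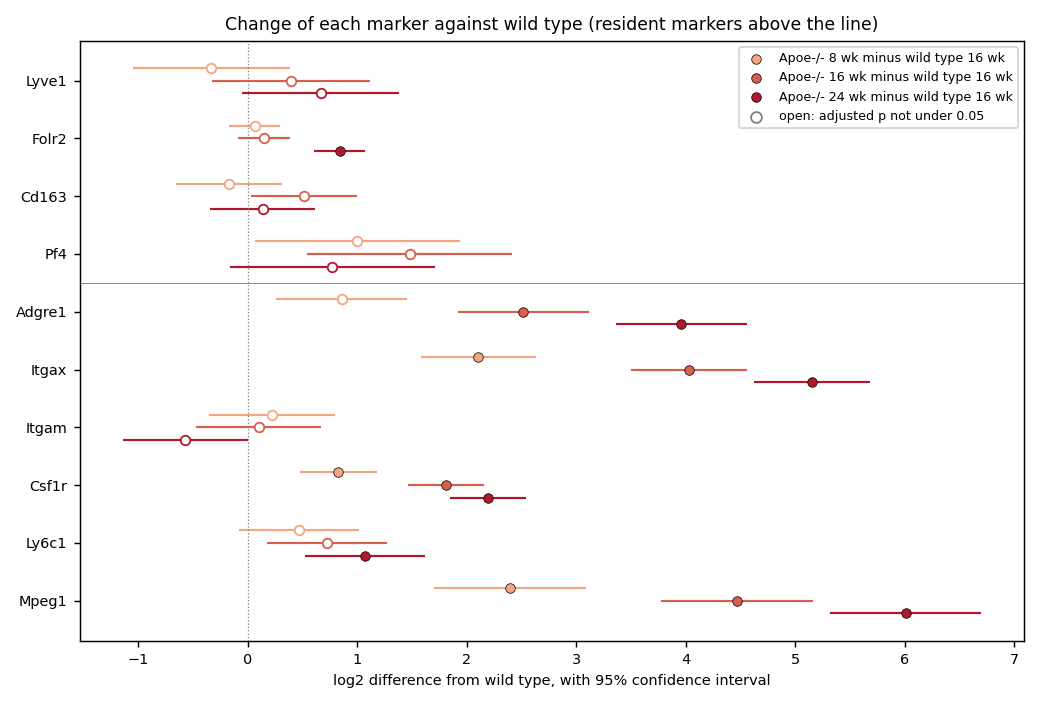
Log2 difference of each Apoe-/- group from wild type (horizontal axis) for the 10 markers, as the limma estimate with its 95% confidence interval and open points where the adjusted p was not under 0.05. Mpeg1, Itgax, Adgre1 and Csf1r run to the right from 8 to 24 weeks, whereas among the resident markers above the line only the 24-week point of Folr2 is filled.

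Within the Apoe-/- arches, Mpeg1, Itgax, Adgre1 and Csf1r were the markers called as higher after 16 than after 8 weeks, where 2.4% of all genes were called and 1.89% as higher. Mpeg1 was 4.21-fold higher after 16 than after 8 weeks (limma adjusted p = 0.00813), Itgax 3.79-fold (adjusted p = 0.00513), Adgre1 3.14-fold (adjusted p = 0.0104) and Csf1r 1.98-fold (adjusted p = 0.00945). None of these 4 calls passed under quantile normalization or with only those 2 groups in the fit, and the calls of Adgre1 and Csf1r were lost without pool 5. After 24 against 16 weeks, where 5.95% of genes were called, 3.98% as higher and 1.96% as lower, Mpeg1 was 2.91-fold higher (adjusted p = 0.0203), Adgre1 2.72-fold (adjusted p = 0.0152) and Itgax 2.18-fold (adjusted p = 0.0233). Csf1r differed by 1.30-fold between these times and did not pass (adjusted p = 0.187). The adjusted p of Mpeg1 and Itgax exceeded 0.05 without pool 4, 6, 10, 11 or 12 and that of Adgre1 without pool 4, 6, 11 or 12. The log2 differences in those fits stayed close to the full ones, at 1.367 to 1.615 for Mpeg1 (1.54 with all pools), 0.96 to 1.25 for Itgax (1.12) and 1.365 to 1.445 for Adgre1 (1.44). With pools 3 and 6 both left out, Itgax was the only marker called between 16 and 8 weeks and Folr2 the only one between 24 and 16 weeks. Between 24 and 8 weeks, where 28.8% of genes were called and 14.7% as higher, the folds were 12.2 for Mpeg1 (adjusted p = 3.1e-05), 8.55 for Adgre1 (adjusted p = 3.17e-05), 8.27 for Itgax (adjusted p = 2.12e-05) and 2.58 for Csf1r (adjusted p = 0.000159).

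Ly6c1 belongs to the Ly6C surface proteins, whose high form marks inflammatory monocytes in mouse blood and which some endothelial cells also carry. The probe is annotated only as Ly6c, Ly6c2 was not measured apart from it, and transcripts of these near-identical genes cannot be told apart here. Apoe-/- pools had log2 ratios of -0.31, -0.91 and 0.19 after 8 weeks, -0.20, 0.08 and -0.13 after 16 weeks and 0.22, 0.31 and 0.26 after 24 weeks, against -0.73, -1.24 and -0.46 in wild type pools. The 8-week pools overlap wild type and the later pools do not. Ly6c1 was 2.10-fold higher than in wild type after 24 weeks (CI 1.44 to 3.07, limma adjusted p = 0.0091). The 16-week difference of 1.65-fold (CI 1.13 to 2.42) did not pass (adjusted p = 0.0995), but passed when pool 2 or pool 3, both of the 8-week group, was left out (adjusted p = 0.0252 and 0.0451). In all it passed in 3 of 20 alternative fits, and in 2 of the 12 that left out 1 pool. After 24 weeks 11.6% of all genes were called higher than in wild type and 11.3% lower. Of 10 measured blood endothelial genes 4 were higher and 0 lower there by limma (4 at an unadjusted p under 0.05, all higher), with a median log2 difference of 0.40. Among them are the defining genes Cdh5 and Pecam1, a junction cadherin and CD31. In 24-week Apoe-/- arches they differed from wild type by 1.05-fold and 1.01-fold in the lower direction and did not pass (limma adjusted p = 0.589 and 0.915). The part of endothelium in the Ly6c1 result was not tested.

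Itgam encodes CD11b, the integrin chain of monocytes, macrophages and neutrophils, and its probe did not follow those of the other 5. Without intensities it is not known whether this probe lay above background on any array. Its log2 ratios were 0.12, 1.08 and 0.41 after 8 weeks, 0.38, 0.02 and 0.84 after 16 weeks and -0.04, -0.44 and -0.28 after 24 weeks, against 0.16, 0.15 and 0.64 in wild type pools. The 24-week pools are lowest and the other groups overlap. Against wild type the log2 difference was 0.22 after 8 weeks (limma adjusted p = 0.651), 0.10 after 16 weeks (adjusted p = 0.898) and -0.57 after 24 weeks (adjusted p = 0.145), and the 95% interval after 16 weeks runs from 0.722-fold to 1.6-fold. Itgam was called lower after 24 than after 8 weeks, by 1.73-fold (CI 1.16 to 2.57, adjusted p = 0.0425), and 14.1% of all genes were called lower there. This call was lost when pool 2, 3, 4, 10, 11, 12, 16 or 17 was left out. Its binding partner Itgb2, the CD18 chain, was 1.45-fold higher in 24-week Apoe-/- than in wild type arches (adjusted p = 0.00848) and is named here after its value was seen. The 4 pools with the highest Itgam ratio, pools 2, 6, 18 and 3, are the 4 with the widest spread of ratios over all genes (interquartile range 0.466, 0.228, 0.297 and 0.323 on the log2 scale), and the part of this in the result was not tested.

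Itgam and Itgax lie side by side on chromosome 7 with 0 protein-coding genes between them, yet only Itgax was called against wild type. Their proximal promoters are shown because the probes of these neighbours gave different values, and that of Mpeg1 because among the markers its ratios ran closest to those of Itgax. Each is the RefSeq sequence of the 250 bases before the gene's start in build GRCm38.p6, on the plus strand at chr7:128062390-128062639 for Itgam, chr7:128129300-128129549 for Itgax and chr19:12460520-12460769 for Mpeg1, with matches on either strand to the motif GAGGAA or to the motif AGATAA in capitals.
Itgam: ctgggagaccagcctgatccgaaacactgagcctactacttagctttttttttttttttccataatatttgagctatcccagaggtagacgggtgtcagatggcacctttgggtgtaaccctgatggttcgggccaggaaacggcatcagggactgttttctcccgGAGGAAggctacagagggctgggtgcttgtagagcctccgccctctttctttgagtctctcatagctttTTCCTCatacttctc
Itgax: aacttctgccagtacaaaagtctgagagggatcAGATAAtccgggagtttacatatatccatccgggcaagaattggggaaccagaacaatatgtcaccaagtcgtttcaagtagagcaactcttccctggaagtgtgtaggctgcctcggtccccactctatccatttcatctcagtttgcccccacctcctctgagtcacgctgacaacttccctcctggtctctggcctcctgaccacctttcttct
Mpeg1: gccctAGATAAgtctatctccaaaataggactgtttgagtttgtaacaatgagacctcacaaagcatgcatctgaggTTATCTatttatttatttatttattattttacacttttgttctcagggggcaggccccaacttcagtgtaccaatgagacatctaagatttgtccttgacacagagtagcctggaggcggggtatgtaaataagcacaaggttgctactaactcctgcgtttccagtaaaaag
GAGGAA, which reads TTCCTC on the other strand, is a core bound by PU.1, the factor of the macrophage lineage. AGATAA, which reads TTATCT on the other strand, is a core bound by GATA factors. No matches overlap. Itgam holds 2 matches to GAGGAA and 0 to AGATAA, Itgax 0 and 1, and Mpeg1 0 and 2. Among 32536 mouse promoter windows of this length, 23.4% hold GAGGAA and 10.0% hold AGATAA.

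Folr2, a folate receptor of resident macrophages, was the only resident marker called against wild type. Its ratios on the log2 scale were -0.49, -0.30 and -0.60 after 8 weeks, -0.47, -0.21 and -0.45 after 16 weeks and 0.19, 0.40 and 0.35 after 24 weeks, against -0.45, -0.68 and -0.45 in wild type pools. All 24-week pools lie above all others, and the other 3 groups overlap. Folr2 was 1.79-fold higher than in wild type after 24 weeks (CI 1.52 to 2.11, limma adjusted p = 0.000177). It differed by a log2 of 0.06 after 8 weeks (adjusted p = 0.759) and by 1.11-fold after 16 weeks (CI 0.943 to 1.31, adjusted p = 0.482). Within the Apoe-/- arches it was 1.71-fold higher after 24 than after 8 weeks (adjusted p = 0.000471) and 1.61-fold higher than after 16 weeks (adjusted p = 0.00847). The call against 16 weeks was lost without pool 4 or pool 11 (adjusted p = 0.0553 and 0.0508).

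Lyve1 encodes a hyaluronan receptor of adventitial macrophages and of lymphatic endothelium. Its log2 ratios were -0.62, -1.63 and 0.04 after 8 weeks, 0.10, -0.16 and 0.04 after 16 weeks and 0.37, 0.28 and 0.14 after 24 weeks, against -0.08, -0.76 and -0.37 in wild type pools. Pool 2 is the lowest of all, and only the 24-week pools lie wholly above wild type. Lyve1 was 1.59-fold higher than in wild type after 24 weeks (CI 0.963 to 2.61), which did not pass (limma adjusted p = 0.172). This difference passed in 3 of 20 alternative fits, and in 1 of the 12 that left out 1 pool, without pool 2 (adjusted p = 0.0236). Pool 2 belongs to the 8-week group, and the log2 difference was 0.666 with or without it. Lyve1 differed by 1.32-fold after 16 weeks (CI 0.799 to 2.17, adjusted p = 0.567) and by a log2 of -0.33 after 8 weeks (adjusted p = 0.587). After 24 weeks it was 1.99-fold higher than after 8 weeks (CI 1.21 to 3.29, adjusted p = 0.0423), a call that held in 3 of 12 fits leaving out 1 pool, without pool 3, 16 or 17. Of 9 lymphatic endothelial genes 3 were higher (Pdpn by 3.48-fold, Mmrn1 by 1.59-fold and Nrp2 by 1.39-fold) and 2 lower (Itga9 and Foxc2) than in wild type after 24 weeks, of which Mmrn1 and Foxc2 are named after their values were seen. Of all genes, 11.6% were called higher and 11.3% lower there. Prox1, the factor that defines lymphatic endothelium, differed from wild type by 1.11-fold after 16 weeks (adjusted p = 0.578) and by 1.09-fold after 24 weeks (adjusted p = 0.546). The part of lymphatic endothelium in the Lyve1 result was not tested.

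Cd163 encodes the scavenger receptor that clears haemoglobin bound to haptoglobin. Its log2 ratios were -0.57, -0.54 and 0.24 after 8 weeks, 0.13, 0.36 and 0.68 after 16 weeks and 0.07, 0.24 and -0.26 after 24 weeks, against -0.12, -0.26 and 0.02 in wild type pools. The 16-week pools are the only Apoe-/- pools that lie wholly above wild type. The difference there was 1.43-fold (CI 1.02 to 2) and did not pass (limma adjusted p = 0.191). After 8 weeks the log2 difference was -0.17 (adjusted p = 0.684), and after 24 weeks Cd163 differed by 1.10-fold (adjusted p = 0.701). The 16- against 8-week difference of 1.61-fold did not pass (adjusted p = 0.151). Of 20 alternative fits it passed in only 1, without pool 3 (adjusted p = 0.0338).

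Pf4, platelet factor 4, is a chemokine stored in platelet granules and also made by some resident macrophages. Its log2 ratios were 0.15, -1.27 and 0.84 after 8 weeks, 0.70, 0.15 and 0.30 after 16 weeks and -0.01, -0.57 and -0.38 after 24 weeks, against -0.92, -1.53 and -0.83 in wild type pools. The 16- and 24-week pools lie above wild type, and pool 2 falls among the wild type pools. Pf4 differed from wild type by 2.79-fold after 16 weeks (CI 1.46 to 5.34, limma adjusted p = 0.0508), just outside the threshold. It passed without pool 2 (adjusted p = 0.0025) or pool 3 (adjusted p = 0.0191), with arrays centred on their medians (adjusted p = 0.0491) and with array weights (adjusted p = 0.000431). In all it passed in 6 of 20 alternative fits, and in 2 of the 12 that left out 1 pool. Adjusted p reached 0.189 in the others, and was 0.0776 under quantile normalization. The differences of 2.00-fold after 8 weeks (CI 1.05 to 3.83, adjusted p = 0.208) and 1.71-fold after 24 weeks (CI 0.895 to 3.27, adjusted p = 0.22) did not pass, and both did without pool 2 (adjusted p = 0.0134 and 0.0336). Of 20 alternative fits, only 2 passed after 8 weeks and 3 after 24 weeks. Quantile normalization brought the 24-week log2 difference of Pf4 to 0.04 (limma adjusted p = 0.95).

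Pool by pool, Pf4 ran more closely with many of the platelet genes than with the other resident markers. Over the 12 arrays, which share the reference and the group structure, the genes most like Pf4 were Gp5 (Pearson r = 0.965), Itga2b (r = 0.960) and Gp1ba (r = 0.955), which encode the glycoprotein V, integrin alpha IIb and glycoprotein Ib chains of the platelet surface. Over the 9 Apoe-/- arrays r was 0.945 with the platelet chemokine Ppbp and 0.937 with Itga2b, against 0.567 with Lyve1, 0.511 with Cd163 and -0.528 with Folr2. Not all of the 11 platelet genes measured were alike: over the 12 arrays r with Pf4 was 0.695 for Treml1, 0.578 for Gp6 and -0.017 for Itgb3, named after their values were seen. Ppbp had log2 ratios of 0.46, -2.02 and 0.69 after 8 weeks, 0.75, -0.20 and 0.25 after 16 weeks and -0.41, -0.87 and -0.14 after 24 weeks, against -1.68, -2.36 and -2.09 in wild type pools. Of 11 measured platelet and megakaryocyte genes, 6 were higher than in wild type after 16 weeks, among them Clec1b by 5.63-fold (adjusted p = 0.0229), Ppbp by 4.96-fold (adjusted p = 0.027) and Itga2b by 3.18-fold (adjusted p = 0.00823). Of all genes, 6.03% were called higher there. The median log2 ratio of these 11 genes ran from -0.73 to 0.48 after 8 weeks, -0.04 to 0.53 after 16 weeks and -0.35 to -0.13 after 24 weeks, against -1.08 to -0.75 in wild type. Their part in the Pf4 result was not tested.
The Pf4 promoter, chr5:90772185-90772434 on the plus strand of GRCm38.p6 in RefSeq, is shown for comparison with the macrophage genes above and holds 1 match to the first motif and 0 to the other.
Pf4: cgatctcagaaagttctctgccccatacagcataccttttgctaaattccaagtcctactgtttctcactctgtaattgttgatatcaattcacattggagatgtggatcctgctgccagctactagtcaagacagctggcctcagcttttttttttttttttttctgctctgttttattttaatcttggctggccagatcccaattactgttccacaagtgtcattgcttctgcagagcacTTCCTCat

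**Figure D3:**
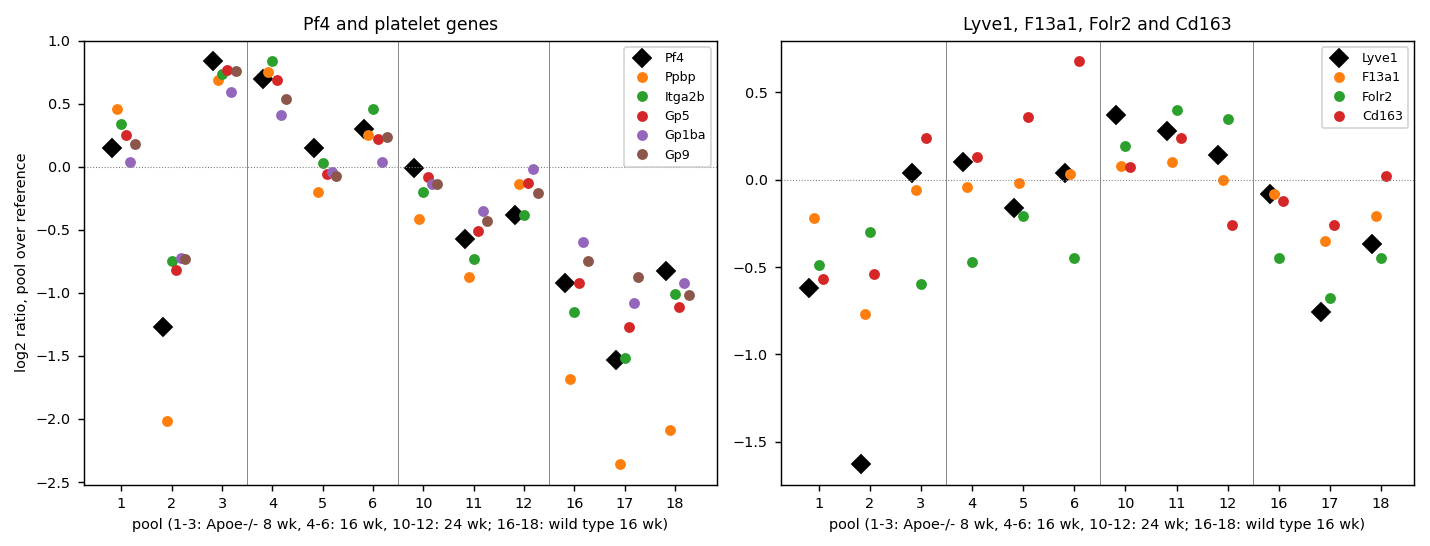
Log2 ratio over the common reference (vertical axis) in the 12 pools (horizontal axis, the 3 Apoe-/- diet times in order and wild type last), with the marker as a black diamond beside genes set against it as coloured circles. Pf4 and the platelet genes are low together in pool 2 and in the wild type pools, where Pf4 was -1.27 and between -1.53 and -0.83.

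The other resident markers had other companions. Lyve1 was most like F13a1 (r = 0.981 over the 12 arrays), Prkcb (r = 0.936) and Gpt2 (r = 0.927). F13a1, the coagulation factor XIII A chain of resident macrophages and platelets, had its lowest log2 ratio in pool 2 as Lyve1 did (-0.77). Folr2 was most like Otud5, Myc and Col5a3 (r = 0.975, 0.974 and 0.972), and Cd163 most like Gna15 (r = 0.821). Among the resident markers themselves r was 0.65 for Lyve1 with Cd163, 0.568 for Lyve1 with Pf4, 0.521 for Cd163 with Pf4, 0.435 for Lyve1 with Folr2, 0.063 for Folr2 with Cd163 and -0.034 for Folr2 with Pf4. Among the general or recruited markers r was highest for Itgax with Mpeg1 (0.996) and lowest for Adgre1 with Itgam (-0.588). Folr2 reached r = 0.841 with Adgre1. Mpeg1 was most like Bcl2a1a and Nckap1l (r = 0.999 each), Itgax most like Trem2, Atp6v0d2 and Syngr1 (r = 0.997 each), Adgre1 most like Ptpro (r = 0.996) and Csf1r most like Batf3 and Vav1 (r = 0.994 each). Ly6c1 was most like Emilin2 (r = 0.959) and Plac8 (r = 0.948), a gene of the monocyte list. Itgam was most like Grik3 (r = 0.991) and Hcn2 (r = 0.990), a glutamate receptor and an ion channel of nerve cells.

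Longer marker lists held mixed members. The counts that follow stand against the shares of all genes called against wild type. These were 1.76% higher and 0.736% lower after 8 weeks, and 6.03% and 4.07% after 16 weeks. After 24 weeks they were 11.6% and 11.3%. Of 18 further resident macrophage genes measured, 3 were higher and 0 lower than in wild type after 16 weeks by limma (5 higher and 6 in all at an unadjusted p under 0.05), with a median log2 difference of 0.19 against -0.03 over all genes. The largest rises were in Ccl8, a chemokine (5.77-fold, CI 3.52 to 9.46, adjusted p = 0.000509), and Igf1, the growth factor (3.06-fold, CI 2.39 to 3.94, adjusted p = 0.000104). After 24 weeks 7 were higher and 2 were lower, and the lower ones, Cbr2 and Fcgrt, are named after their values were seen. The count of lower genes is near the 11.3% of all genes. Mrc1, the mannose receptor CD206, differed by 1.51-fold after 16 weeks (adjusted p = 0.308) and was 3.20-fold higher after 24 weeks (CI 1.98 to 5.15, adjusted p = 0.00247). Timd4, a marker of self-maintaining resident macrophages, differed by 1.13-fold after 16 weeks (adjusted p = 0.669) and by 1.09-fold after 24 weeks (adjusted p = 0.66).

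Of 14 general macrophage genes, 6 were higher than in wild type after 8 weeks, 10 after 16 weeks and 12 after 24 weeks, with median log2 differences of 0.74, 1.70 and 2.66. Ptprc, the leukocyte marker CD45, was 9.36-fold higher after 16 weeks (CI 5.62 to 15.6, limma adjusted p = 0.00012), and Tyrobp, the adaptor DAP12, 7.35-fold higher (CI 4.97 to 10.9, adjusted p = 4.46e-05). Cd68, a lysosomal marker of macrophages, differed by 1.04-fold after 16 weeks (adjusted p = 0.766) and was 1.22-fold higher after 24 weeks (adjusted p = 0.0171). Of 16 measured monocyte genes, 2, 6 and 10 were higher at the 3 times. After 16 weeks Lyz2, lysozyme, was 3.74-fold higher (adjusted p = 0.000331) and Ms4a4c 3.64-fold (adjusted p = 0.00414). The monocyte chemokine receptor Ccr2 differed by 1.38-fold after 16 weeks (adjusted p = 0.118) and was 1.59-fold higher after 24 weeks (adjusted p = 0.0132).

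Genes that bring in and maintain macrophages were mixed as well. Of 8 such growth factors and chemokines, 3 were higher after 16 weeks, among them Ccl7 by 6.38-fold (limma adjusted p = 0.000389) and Ccl2 by 5.07-fold (adjusted p = 0.00012), the ligands of Ccr2. Csf1, the ligand of Csf1r, differed by 1.08-fold in the lower direction (adjusted p = 0.725).

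Other cell types moved alongside. Of 10 smooth muscle genes, 7 were lower than in wild type after 16 weeks and 9 after 24 weeks, with medians of -0.54 and -1.14 on the log2 scale, and Ppp1r14a was lower by 2.31-fold after 16 weeks (limma adjusted p = 7.94e-05). The part of this shift in tissue make-up in the marker differences was not tested. Of 9 neutrophil genes, which share Itgam with macrophages, 2 were higher after 16 weeks, among them S100a8 by 4.83-fold (adjusted p = 0.0208). Of 9 lymphatic endothelial genes 1 was higher (Nrp2, 1.27-fold, adjusted p = 0.0168) and 1 lower (Itga9, 1.45-fold, adjusted p = 0.00347), and Pdpn, which macrophages also carry, differed by 1.44-fold (adjusted p = 0.0715). Of 10 blood endothelial genes 4 were higher, led by the VEGF receptor Kdr at 2.03-fold (adjusted p = 0.0454), while Pecam1 differed by 1.05-fold (adjusted p = 0.721) and Cdh5 by 1.02-fold in the lower direction (adjusted p = 0.881). Of 11 dendritic cell genes 4 were higher, among them Irf8 by 5.04-fold (adjusted p = 0.000113) and Flt3 by 1.73-fold (adjusted p = 0.0128), and Zbtb46 differed by 1.03-fold (adjusted p = 0.741). Of 8 natural killer and lymphocyte genes 2 were higher, Cd3g by 1.91-fold (adjusted p = 0.0166) and Ncr1 by 1.58-fold (adjusted p = 0.0104).

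Of the 16-week calls named from these lists and the platelet list, quantile normalization kept those of Ccl8, Ccl7, Itga2b and Ppp1r14a and ended those of Igf1, Lyz2, Ms4a4c, Ptprc, Tyrobp, Irf8, Ccl2, Nrp2, Itga9, Kdr, Clec1b, Ppbp, S100a8, Cd3g, Flt3 and Ncr1, with Tyrobp at a log2 difference of 0.45 and Lyz2 at 0.10. For 7 of these genes the call was lost when 1 pool was left out. That of Kdr was lost without pool 1, 4, 6, 10, 11, 12, 16, 17 or 18, that of Clec1b without pool 4, 5, 6, 16, 17 or 18 and that of Ppbp without pool 4, 6, 16, 17 or 18. Those of Cd3g (pool 4, 5, 17 or 18), S100a8 (pool 4, 17 or 18), Nrp2 (pool 4, 6 or 17) and Flt3 (pool 5 or 17) were lost likewise.

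**Figure D4:**
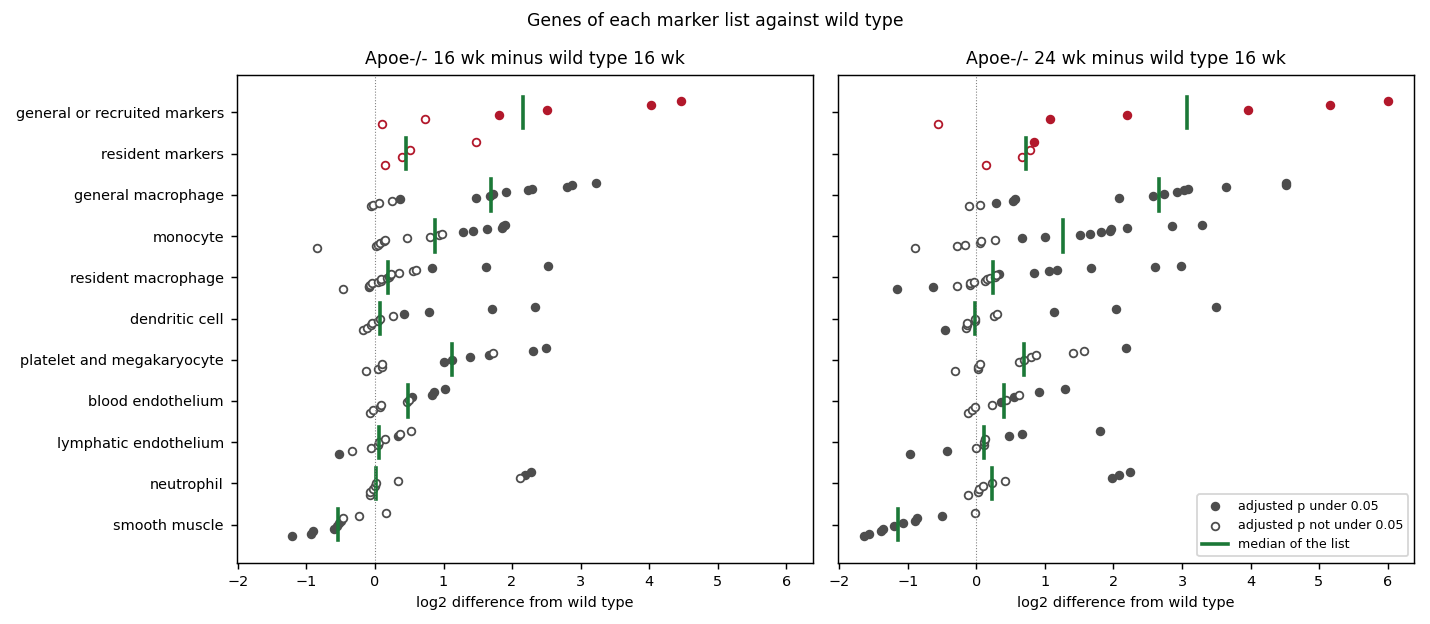
Log2 difference of each gene from wild type (horizontal axis) after 16 weeks (left) and 24 weeks (right) of diet, 1 point per gene, by marker list down the page, filled where the adjusted p was under 0.05, with the list median as a green bar. The general macrophage list has medians of 1.70 and 2.66, and the smooth muscle list lies to the left with medians of -0.54 and -1.14. The resident macrophage list has medians of 0.19 and 0.24. Of its 18 genes, 7 were called higher and 2 lower after 24 weeks, against 11.6% and 11.3% of all genes.

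Each marker was also set against Csf1r, which both kinds of macrophage share; this moves all markers of a pool by the same amount. The log2 ratio of Mpeg1 minus that of Csf1r averaged -1.94 ± 0.51, -0.85 ± 0.33 and 0.30 ± 0.12 after 8, 16 and 24 weeks, against -3.51 ± 0.08 in wild type (SD, n = 3 each). For Itgax it averaged -1.42 ± 0.36, -0.48 ± 0.29 and 0.26 ± 0.02, against -2.70 ± 0.20 in wild type. For Adgre1 it averaged -1.44 ± 0.42, -0.77 ± 0.09 and 0.28 ± 0.22, against -1.48 ± 0.12 in wild type. Every Apoe-/- pool lay above every wild type pool for Mpeg1 and Itgax at all 3 times and for Adgre1 after 16 and 24 weeks, as did 0.442%, 0.563% and 0.858% of all genes at the 3 times. Under quantile normalization the 16-week difference from wild type relative to Csf1r was 0.62 for Mpeg1, 0.62 for Itgax and -0.79 for Adgre1, against 2.66, 2.22 and 0.70 as deposited, and the 8-week one was 0.37 for Mpeg1 and 0.16 for Itgax, against 1.57 and 1.28. Folr2 averaged 0.56 ± 0.30, -0.34 ± 0.03 and -0.03 ± 0.26, against 1.33 ± 0.18 in wild type, Lyve1 0.29 ± 0.71, 0.03 ± 0.30 and -0.08 ± 0.10, against 1.45 ± 0.25, and Cd163 0.73 ± 0.45, 0.43 ± 0.34 and -0.33 ± 0.10, against 1.73 ± 0.16. For these 3 resident markers every Apoe-/- pool lay below every wild type pool at each time, but so did 85.6%, 97.9% and 97.7% of all genes, Csf1r itself being higher. Pf4 averaged 0.93 ± 0.94, 0.42 ± 0.41 and -0.66 ± 0.31, against 0.76 ± 0.11, and lay wholly below wild type after 24 weeks. Of the general or recruited markers, Itgam averaged 1.56 ± 0.66, 0.45 ± 0.56 and -0.60 ± 0.26, against 2.17 ± 0.20. Ly6c1 averaged 0.68 ± 0.44, -0.04 ± 0.05 and -0.08 ± 0.20, against 1.04 ± 0.10. Both overlapped wild type after 8 weeks. After 16 and 24 weeks both lay wholly below it, as the 3 resident markers and 97.9% and 97.7% of all genes did. The exact two-sided permutation test over 3 against 3 pools cannot go below 0.1, which each comparison without overlap reached.

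The targeted gene followed the labels: Apoe had log2 ratios of -0.20 to 0.23 in the 9 Apoe-/- pools and of 2.62, 2.01 and 2.85 in the wild type pools. Pool 2 had the widest spread of ratios over all genes (interquartile range 0.466 against 0.118 to 0.323 in the others). Results without it are given above only where leaving it out changed the call of a marker. The ratios give no levels, so whether a marker was present or absent in a group, and which of 2 markers was the more abundant, cannot be read from them.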

How the data were processed

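RNA of 12 pools of mouse aortic arch was measured on 12 two-colour arrays, with the pool in Cy5, the Apoe-/- reference in Cy3 and no dye swap, per the labels. Total RNA came from spin columns with DNase digestion and was labelled by an automated aminoallyl method, per the labels' protocols. The values are the log10 ratios the authors deposited, for 39556 probes. Neither scanner nor background correction nor normalization is given in those sources, and no intensities were used, so background cannot be checked. The direction was settled from the values and the dyes, and base 10 was taken as the likelier base. Apoe lay above the reference in the wild type pools, as pool over reference gives. Base 10 makes Pth, found in pool 10, need that pool to be 15.7% of the reference, against 43.6% in base 2 and 36.8% in base e, where 14.3% is the share by mice. For Prm1 in pool 1 the shares were 13.5%, 35.6% and 30.3%, and for Jchain in pool 4 they were 8.5%, 29.3% and 23.9%. This check assumes that those pools are part of the reference, which the labels do not state. The deposited columns had medians of 0.0043, 0.0181 and 0.0071 in pools 1, 2 and 3, 0.0064, 0.0058 and 0.0019 in pools 4, 5 and 6, 0.0005, -0.0012 and -0.0025 in pools 10, 11 and 12 and 0.0109, 0.0174 and 0.013 in pools 16, 17 and 18. The centring method stays unknown. Arrays of the 24-week group correlated negatively over probes with those of the 8-week (median r = -0.544), 16-week (-0.333) and wild type groups (-0.47). The labels state the dyes and the reference mixes all 3 diet times, so the direction was kept.

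Values were multiplied by 3.3219 to log2. The platform annotation named 1 gene for 23283 probes, several for 0 and none for 16273. Of the symbols, 14510 were current, 5952 older ones were replaced through a RefSeq table of GRCm38.p6, and 78 ambiguous and 11 unmatched ones were kept. Probes of a gene were averaged (2869 genes had 2 or more), which gave 19896 genes. The 19705 without missing values entered the fit (limma 3.58.1, R 4.3.3, functions lmFit and eBayes, 1 mean per group over 12 arrays, 8 residual and 2.95 prior degrees of freedom, no covariate). Adjusted p-values are two-sided, by Benjamini and Hochberg over all 19705 genes, with a threshold of 0.05, for each of 6 comparisons. The 3 comparisons with wild type share its pools. The pools held different mice, and 3 arrays per group limit the precision. No 2 arrays held identical values. On simulated data at this design (16 weeks against wild type, 19705 genes), 90% of genes shifted 2-fold and 100% of those shifted 16-fold were recovered. The simulated noise was independent and normal with each gene's own residual spread, without the differences in spread between arrays seen here. The shifted genes were drawn at random, so these shares do not give the recovery of any 1 marker. A marker not called may have changed 2-fold or more, as the 8-week interval of Pf4 (1.05 to 3.83) allows. Confidence intervals come from the limma fit of the real data. Permutation tests and promoter matches used Python 3.11.15 with SciPy 1.17.1. Promoters were found in the RefSeq table for 7 of the 10 markers.

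The markers and lists were chosen with earlier results of these data known. The genes named are the 10 markers, the largest rise and fall of each list among 16-week calls (up to 2 of each for the macrophage and monocyte lists), fixed defining markers, and the 3 genes most correlated with each marker. Ly6c2 and Ly6g were not measured. Alternatives were median-centring, quantile normalization, array weights, robust eBayes, a low-variance filter, single probes, only the pair of groups compared, pools 3 and 6 left out, and each pool left out.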

Additional observations from a re-analysis of the deposited data

Results flagged for a closer look

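The change against wild type differed between 24 and 8 weeks of diet for 7 of the 10 markers, by the test of that difference in limma. Both changes are taken against the same wild type pools, so the difference equals that between the 24- and 8-week Apoe-/- pools, and 28.8% of all genes tested differed there. On the log2 scale the 24-week change exceeded the 8-week change by 3.612 for Mpeg1, 3.095 for Adgre1, 3.047 for Itgax, 1.367 for Csf1r, 0.996 for Lyve1 and 0.775 for Folr2. For Itgam it was -0.79, the only negative difference among those called. Those of Lyve1 and Itgam had adjusted p of 0.0423 and 0.0425. Leaving out 1 pool at a time, Lyve1 passed in 3 of 12 fits and Itgam in 4 of 12.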

How the results depend on the processing

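Of 1200 recomputed differences of the 10 markers, 1084 kept their direction and side of the threshold, 34 passed anew, 64 no longer passed and 18 changed direction, with 0 of the 18 called in either fit. Leaving out 1 pool at a time, the genes called ranged from 1231 to 3052 after 16 weeks against wild type, from 137 to 760 after 8 weeks, from 3105 to 6237 after 24 weeks, from 167 to 758 for 16 against 8 weeks, from 119 to 2572 for 24 against 16 weeks and from 2955 to 7020 for 24 against 8 weeks. The markers called higher ranged from 4 to 6, 2 to 5, 6 to 8, 2 to 5, 0 to 4 and 5 to 8 in the same order, and those called lower from 0 to 1 for 24 against 8 weeks. In the reported fit the genes called were 1991, 492, 4504, 472, 1172 and 5676. After 16 weeks against wild type they were 893 under quantile normalization and 5604 with array weights. After 8 weeks they were 7 under quantile normalization, 29 with only 2 groups fitted and 310 without pools 3 and 6, and the markers called higher were 0, 1 and 2 there and 5 with array weights. After 24 weeks they were 8180 with array weights, and 1 marker, Itgam, was lower under quantile normalization, with array weights and with only 2 groups fitted. For 16 against 8 weeks limma called 1 gene under quantile normalization (1924 at an unadjusted p under 0.05), 0 with only 2 groups fitted (1914 at an unadjusted p under 0.05) and 153 without pools 3 and 6, with 0, 0 and 1 markers higher. For 24 against 16 weeks it called 5034 under quantile normalization, 6296 with array weights, 3328 with only 2 groups fitted and 200 without pools 3 and 6, where 1 marker was higher. Markers lower there were 2 under quantile normalization and 2 with array weights (Pf4 and Itgam) and 1 with only 2 groups fitted (Pf4). For 24 against 8 weeks it called 3266 with only 2 groups fitted, and 0 markers were lower with array weights, with 2 groups or without pools 3 and 6. Higher calls made up 59.7% of those after 16 weeks, against 44.8% under quantile normalization and 41.1% with array weights. After 8 weeks they were 70.5%, against 0% of 7 under quantile normalization, and after 24 weeks 50.7%, against 50.6% under quantile normalization, 41.0% with array weights and 59.4% with median-centred arrays. For 16 against 8 weeks the share was 78.8%, and for 24 against 16 weeks 67.0%, against 51.1% under quantile normalization. Quantile normalization gave every array the same distribution by construction. The cause of the other shifts was not tested.

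Differences that changed direction did so as follows, on the log2 scale. Under quantile normalization, values against wild type were -0.201 for Folr2, -0.58 for Pdpn, -0.305 for Mrc1 and 0.006 for Cdh5 after 16 weeks and -0.008 for Folr2 and -0.222 for Adgre1 after 8 weeks, and between 16 and 8 weeks -0.193 for Folr2 and 0.071 for Itgam (0.057 with array weights). Without pools 3 and 6 they were -0.111 for Itgam and 0.014 for Cdh5 after 16 weeks and 0.24 for Pf4 between 24 and 8 weeks, the same as without pool 6 or pool 3 alone. Pool 2 left out turned Lyve1, Folr2 and Itgam after 8 weeks and Pf4, Itgam and Ly6c1 between 16 and 8 weeks. Pool 17 left out turned the 8-week Folr2 value (-0.011), and pool 5 left out turned Itgam between 16 and 8 weeks (0.077). Leaving out 1 pool at a time, these values ranged as follows. After 16 weeks Itgam ranged from -0.111 to 0.299 and Cdh5 from -0.09 to 0.014. After 8 weeks Lyve1 ranged from -0.719 to 0.116, Folr2 from -0.016 to 0.132 and Itgam from -0.049 to 0.433. Between 16 and 8 weeks Pf4 ranged from -0.109 to 0.944, Itgam from -0.334 to 0.151 and Ly6c1 from -0.025 to 0.524, and between 24 and 8 weeks Pf4 ranged from -0.813 to 0.24. No paired analysis was possible because the groups share no pool numbers.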
